A study of Rattus norvegicus with 8 samples.

Results

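The trigeminal nerve arrays were divided by whether a strain carried any BDIV genome: the 6 arrays of BDIX.BDIV-Mss4d, BDIX.BDIV-Mss4a and BDIV rats were set against the 2 arrays of BDIX rats, which together are all 8 arrays of the series. BDIX.BDIV-Mss4d and BDIX.BDIV-Mss4a, shortened below to Mss4d and Mss4a, are congenic strains, in which a chromosome segment of BDIV was placed on the BDIX background, and BDIV carries its own genome throughout. The labels do not give the chromosome or the ends of the segments. Every array held RNA of pooled trigeminal nerves from untreated rats 85 days old, 1 pool of females and 1 pool of males per strain, and how many animals each pool held is not given. The p-values below therefore measure only the spread between these pools. Of 13114 probes detected on enough arrays to be tested, 1880 had both BDIX arrays above or both below all 6 carrier arrays. With 1 probe taken per gene, that with the highest mean, 1369 of 9154 tested genes separated in this way, and they are the genes described here. Of the 1880 probes 1401 carried a gene symbol.

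BDIX rats are known to develop malignant schwannomas of the trigeminal nerve after a single exposure to the carcinogen ethylnitrosourea, and BDIV rats are resistant. The locus called Mss4 has been linked to this difference, and the comparison asks which transcripts set the resistant strain and both congenic strains apart from BDIX. The trigeminal nerve contains Schwann cells that wrap axons in myelin, the axons of sensory neurons, fibroblasts, perineurial cells and vessels. Whole nerve was measured, so fewer cells of a type and less RNA per cell cannot be told apart.

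Levels are log2 intensities after background correction and quantile normalization, and a difference is the carrier mean minus the BDIX mean with its standard error from limma, with sex as a term. The gap of a gene is the log2 distance between the nearest BDIX array and the nearest carrier array. The arrays differed in brightness by strain before normalization. The 75th percentile of signal was 485 and 484 on the Mss4d arrays, 209 and 215 on the Mss4a arrays and 415 and 418 on the BDIV arrays, against 339 and 333 on the BDIX arrays. The labels name no array batch, so strain and any such batch cannot be told apart, and precision is limited by there being 2 BDIX arrays. The male and female pools of a strain were not equally close. The SD over probes of male minus female was 0.51 in Mss4d, 0.49 in Mss4a and 0.22 in BDIV, against 0.51 in BDIX.

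The regions upstream of 2 genes are shown first because these genes, Gpx2 and Alas2, had the widest gaps among named genes in each direction. The sequences are RefSeq's, from the GRCr8 assembly, and run from 250 bases before the annotated start to 50 bases after it. In Gpx2, at chr6:101229984-101230283 on the minus strand, capitals mark a match to the core of the antioxidant response element, searched as TGACNNNGC on both strands. The match lies on the opposite strand and ends 5 bases before the start. In Alas2, at chrX:22895200-22895499 on the plus strand, capitals mark a match to the GATA factor motif GATAA, 131 bases before the start, also searched on both strands.
Gpx2: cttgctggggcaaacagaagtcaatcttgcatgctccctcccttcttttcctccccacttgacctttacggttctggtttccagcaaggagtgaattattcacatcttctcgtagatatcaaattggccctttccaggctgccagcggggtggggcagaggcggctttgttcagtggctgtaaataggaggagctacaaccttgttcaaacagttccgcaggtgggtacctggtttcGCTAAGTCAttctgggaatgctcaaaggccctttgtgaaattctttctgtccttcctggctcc
Alas2: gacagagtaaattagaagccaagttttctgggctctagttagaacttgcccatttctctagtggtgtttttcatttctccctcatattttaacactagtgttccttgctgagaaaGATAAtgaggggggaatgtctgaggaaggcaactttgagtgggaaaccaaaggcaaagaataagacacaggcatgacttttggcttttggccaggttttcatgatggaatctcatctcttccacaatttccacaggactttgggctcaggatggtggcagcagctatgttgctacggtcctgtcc
A match is a run of letters and not a shown binding site. TGACNNNGC was found in 12.1% and GATAA in 26.5% of all 33469 promoter windows of the same length. Of 36 tested genes of glutathione and peroxide defence, 5 had both BDIX arrays below all carriers, and all 5 had a window here; Gpx2 was the 1 of them with a TGACNNNGC match. Of the other 31 members 23 had a window, and 8 of these held the match.

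Gpx2 encodes a glutathione peroxidase, an enzyme that uses glutathione to reduce hydroperoxides. Its level was 10.55 in the female and 10.65 in the male pool of Mss4d, 9.84 and 10.09 in Mss4a, and 10.83 and 10.96 in BDIV, against 7.10 and 8.39 in BDIX. All 6 carrier arrays lay above both BDIX arrays, by a gap of 1.45. The difference was 2.74 ± 0.38, a 6.69-fold higher mean in carriers, with a limma adjusted p of 0.31, so Gpx2 did not pass the threshold of 0.05 over all tested probes. It was 3.30 between the female pools and 2.18 between the male pools, since the BDIX male pool was the higher of the BDIX pair. By strain the difference from BDIX was 2.86 in Mss4d, 2.22 in Mss4a and 3.15 in BDIV.

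In limma 1 probe passed the adjusted threshold, 0.00763% of those tested, and 0% of the 9154 genes with a symbol did. This probe, ILMN_1351286, carries no gene symbol in the array annotation used here. Its level was 9.65 and 10.43 in Mss4d, 10.24 and 10.32 in Mss4a and 10.07 and 10.01 in BDIV, against 7.11 and 7.40 in BDIX. It rose by 2.87 ± 0.25 in carriers, 7.29-fold, with a limma adjusted p of 0.018, and its gap of 2.25 was the widest of all tested probes. The female and the male pools gave almost the same difference, 2.88 and 2.86. Without either BDIX array, either Mss4a array, the Mss4d male array or the BDIV female array 0 probes passed in limma, while the difference of this probe stayed between 2.81 and 2.95. At an unadjusted p under 0.05 limma gave 1234 probes, or 9.41%. The second smallest adjusted p was 0.31.

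The number of calls depends on what is taken as error. Carrier status belongs to the strain, and 3 carrier strains stand against BDIX alone. In the comparison as given, differences between the 3 carrier strains count as error, and the median residual SD was 0.39. The pools of a strain are taken there as separate units. With strain and sex both as terms, only the variation of the sex difference between strains counts as error. The median residual SD was then 0.22, and 849 of 13114 probes passed, 250 higher and 599 lower in carriers. That fit does not measure the spread between strains, so its calls are not read as differences tied to carrier status. With strain as a random block or with 1 mean per strain 0 probes passed, and 269 and 256 had an unadjusted p under 0.05 in limma.

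Of the 1369 genes whose groups did not overlap, 637 were higher in carriers, 6.96% of tested genes, and 732 were lower, 8%. Together they made up 15% of the tested genes, and over all tested probes the share was 14.3%, with 6.28% higher and 8.06% lower. Most of the gaps were small. The median gap was 0.12 for probes higher in carriers and 0.16 for probes lower in carriers, and the upper quartile of all gaps was 0.28. A gap of at least 0.5 was found in 109 genes, 1.19% of those tested, of which 43 were higher (0.47%) and 66 lower in carriers (0.721%). A gap of at least 1 was found in 7 genes, 0.0765%, and in 10 probes, 0.0763%. The split by direction depended on scaling. Of the separated probes 43.8% were higher in carriers here, and 61.6% in the authors' value table, in which the median difference over tested probes was 0.13. The counts also rose without a BDIX pool. With only the other BDIX array left, separation is easier by construction, so counts without a pool are not read as a trait of that pool. Separated probes numbered 5072 without the BDIX male pool and 3204 without the BDIX female pool, those with a gap of at least 1 numbered 297 and 25, and with arrays scaled to their medians they were 1171 and 6. These genes were chosen by the values compared, so their differences are a description and no test.

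The rule has no margin at its edge. Just inside it lay Ghr, which encodes the growth hormone receptor, with a gap of 0.00090, Cdh3 with 0.00059 and Myo19 with 0.00057. Just outside lay Rtkn, Slc39a13 and Snx4, in each of which the highest carrier array and the lower BDIX array had the same normalized level.

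**Figure D1:**
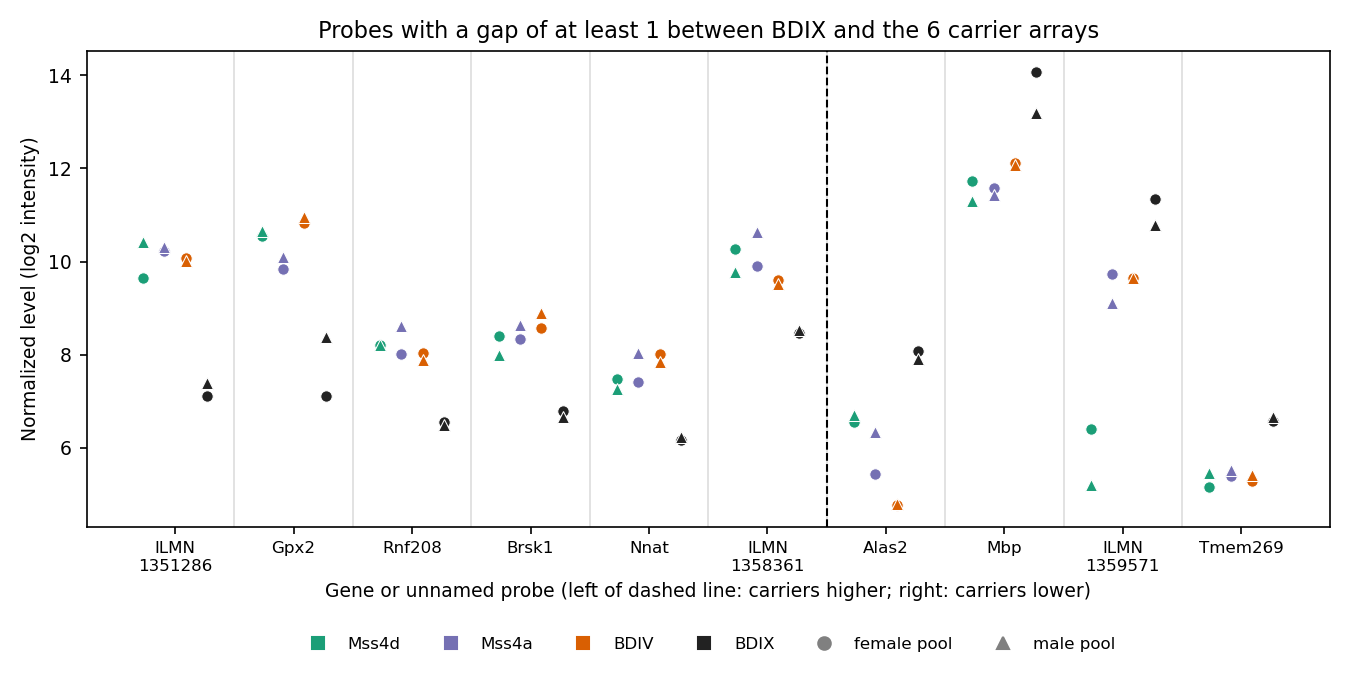
Levels on each of the 8 arrays (vertical axis, log2 intensity after background correction and quantile normalization) for the 7 genes and 3 unnamed probes with a gap of at least 1. Colours are strains, circles female and triangles male pools, with the carrier strains left of BDIX. Left of the dashed line the carriers are higher and right of it they are lower. Gpx2 separates by 1.45 and ILMN_1351286 by 2.25, and ILMN_1359571 has its Mss4d arrays far below those of the other carriers.

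Besides Gpx2, the genes with a gap of at least 1 and higher levels in carriers were Rnf208, Brsk1 and Nnat. Rnf208 encodes a RING finger ubiquitin ligase. Its level was 8.20 and 8.21 in Mss4d, 8.01 and 8.62 in Mss4a and 8.03 and 7.87 in BDIV, against 6.54 and 6.48 in BDIX, a difference of 1.65 ± 0.25. The carriers formed 1 cluster with no strain apart, and the gap was 1.33.

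Brsk1 encodes a kinase that acts in neuronal polarity. Its level was 8.39 and 8.0 in Mss4d, 8.33 and 8.63 in Mss4a and 8.58 and 8.89 in BDIV, against 6.79 and 6.66 in BDIX, with a difference of 1.75 ± 0.28. Nnat, the imprinted gene of neuronatin, stood at 7.47 and 7.25 in Mss4d, 7.40 and 8.04 in Mss4a and 8.01 and 7.83 in BDIV, against 6.16 and 6.23 in BDIX, with a difference of 1.47 ± 0.29. The BDIX pools of both genes lay close together and below every carrier array. A second probe of Nnat differed by 0.82, and there BDIX and carriers overlapped.

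The genes lower in carriers by a gap of at least 1 were Alas2, Mbp and Tmem269. Alas2 encodes the red cell form of the first enzyme of haem synthesis. Its level was 6.56 and 6.70 in Mss4d, 5.43 and 6.33 in Mss4a and 4.76 and 4.78 in BDIV, against 8.07 and 7.91 in BDIX. The carriers were spread widely, with BDIV lowest, and 3 of the 6 carrier arrays detected the probe. The difference was -2.23 ± 0.57, with a gap of 1.21.

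Mbp encodes myelin basic protein, which holds the membrane layers of myelin together. Its level was 11.72 and 11.30 in Mss4d, 11.59 and 11.43 in Mss4a and 12.11 and 12.07 in BDIV, against 14.06 and 13.19 in BDIX. All 3 carrier strains lay below both BDIX pools, BDIV least so, and the difference was -1.93 ± 0.30. It was -2.26 between female and -1.59 between male pools. Tmem269, a gene of a membrane protein, stood between 5.16 and 5.52 in the carriers, against 6.57 and 6.65 in BDIX, a difference of -1.24 ± 0.21, and 4 of 6 carrier arrays detected it.

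The 2 remaining probes with a gap of at least 1 carry no gene symbol. ILMN_1358361 stood between 9.52 and 10.63 in carriers, against 8.47 and 8.52 in BDIX, with a gap of 1.004. ILMN_1359571 was at 6.41 and 5.20 in Mss4d, 9.74 and 9.12 in Mss4a and 9.65 and 9.65 in BDIV, against 11.35 and 10.79 in BDIX. Its mean difference of -2.78 thus rested mostly on Mss4d, which stood at -5.26 from BDIX, against -1.64 for Mss4a and -1.42 for BDIV.

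Next in gap among genes higher in carriers were Syt3, a synaptotagmin gene of vesicle release (gap 0.96, difference 1.36 ± 0.27), Bcas3 (0.90, 1.52 ± 0.30), the SET domain gene Setd5 (0.90, 1.22 ± 0.25) and Ggact, whose product degrades gamma-glutamylamines (0.88, 1.34 ± 0.25). Chrm3, a muscarinic acetylcholine receptor gene, was between 7.57 and 8.57 in carriers, against 6.34 and 6.75 in BDIX, and differed by 1.49 ± 0.32. Dipk1a, Ydjc, the claudin gene Cldn10, the protein kinase C gene Prkce, the interferon-induced GTPase gene Mx2 and the natriuretic peptide gene Nppb completed the 15 widest gaps in this direction, with gaps between 0.72 and 0.82. Mx2 was at 10.53 and 10.59 in BDIV and between 9.48 and 9.64 in both congenic strains, against 8.62 and 8.75 in BDIX. BDIV, the source of the segments, thus stood above both congenic strains. Tapbpl, which encodes an editor of peptides on class I molecules, was added by its small p-value and differed by 1.35 ± 0.26 with a gap of 0.64.

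Among genes lower in carriers, Smo, the transducer of hedgehog signals, was not well above background on any carrier array and stood at 6.09 and 6.13 in BDIX, at least 1.75-fold lower in carriers. For such genes the bound compares the BDIX mean with the lowest signal detected on each dim array, or with the probe's own value where that is higher. Stard13 was likewise at least 1.70-fold lower in carriers. The polarity gene Pard6g had a gap of 0.94, and its level was 6.09 and 6.37 in BDIV and between 7.35 and 7.78 in the congenic strains, against 9.08 and 8.72 in BDIX. The actin-binding gene Shroom2 (-1.80 ± 0.31), Rhobtb3 (-1.84 ± 0.33) and the protease gene Tmprss5 (-2.15 ± 0.47) had gaps between 0.91 and 0.93.

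Tmprss5 was lowest in Mss4d, at 7.66 and 7.61, with 7.93 and 8.09 in Mss4a and 9.02 and 9.0 in BDIV, against 10.82 and 9.93 in BDIX. Cmtm6, a gene of a membrane protein that stabilises PD-L1, was between 5.99 and 7.40 in carriers, against 9.81 and 8.22 in BDIX (-2.09 ± 0.45). Both genes had a BDIX female pool well above the BDIX male pool. Ugt8, Bmp1, the scavenger receptor gene Colec12, Plekhm2 and the phospholipase gene Pla2g5 completed the 15 widest gaps, with gaps between 0.78 and 0.85. A second probe of Plekhm2 stood at -0.01, with BDIX and carriers overlapping, against -1.16 for the first. By their small p-values Fgf7, a fibroblast growth factor gene (-1.64 ± 0.29), the scaffold gene Dlg1 (-1.75 ± 0.31), the endocytosis gene Ston2 (-1.60 ± 0.31), the ubiquitin ligase gene Shprh (-1.29 ± 0.24), the immediate early gene Ier5 (-1.28 ± 0.26) and the progestin receptor gene Paqr7 (-1.21 ± 0.21) were added, each with a limma adjusted p of 0.31.

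Few of the 1369 genes could be checked on a second probe, and where they could the separation seldom recurred. Their 26 other tested probes belonged to 24 genes. Of these probes 17 had a difference of the same sign. Over all tested probes both BDIX arrays lay outside with carriers higher in 6.28% and with carriers lower in 8.06%. Of the 26 other probes 2, or 7.69%, again had both BDIX arrays outside in the same direction. These 2 belonged to Adam10, which encodes a membrane protease (-2.51 and -1.14), and Cav1, which encodes the caveola protein caveolin (-2.19 and -2.17), both named here because of this count. The median ratio of the other probe's difference to the first was 0.31. Of genes whose main probe overlapped, 30 of 173 other probes, 17.3%, had both BDIX arrays outside in either direction.

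The 3 carrier strains did not stand equally far from BDIX. Among the 1369 genes, the strain mean nearest to BDIX was that of Mss4d in 562 genes (41.1%), Mss4a in 307 (22.4%) and BDIV in 500 (36.5%). The farthest was Mss4d in 326 genes (23.8%), Mss4a in 549 (40.1%) and BDIV in 494 (36.1%). The median size of the difference was 0.58 in Mss4d, 0.70 in Mss4a and 0.65 in BDIV, while over all tested genes it was 0.32, 0.38 and 0.41. The 3 values share the BDIX arrays. The nearest and farthest shares were not computed over all tested genes, so their order is not read as particular to the 1369 genes.

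The chromosomes of the 1369 genes were taken from the GRCr8 annotation by gene, since the array names no build. Every chromosome held such genes, from 32 of 287 tested (11.1%) on chromosome 13 to 47 of 260 (18.1%) on chromosome 16, and chromosome 6 held 66 of 384 (17.2%), 28 higher and 38 lower in carriers. With a gap of at least 0.5, chromosome 15 had 7 of 255 genes (2.75%), chromosome 3 had 18 of 685 (2.63%), and chromosome 6 had 4 of 384 (1.04%), against 1.19% of all. The 4 on chromosome 6 were Prkce, the sorting nexin gene Snx13, Gpx2 and Ston2, in places 14, 151, 236 and 307 among its tested genes, so they were not neighbours. Snx13 was lower in carriers by 1.18 ± 0.26. The 7 genes with a gap of at least 1 lay on chromosomes 1 (Brsk1), 3 (Rnf208 and Nnat), 5 (Tmem269), 6 (Gpx2), 18 (Mbp) and X (Alas2).

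**Figure D2:**
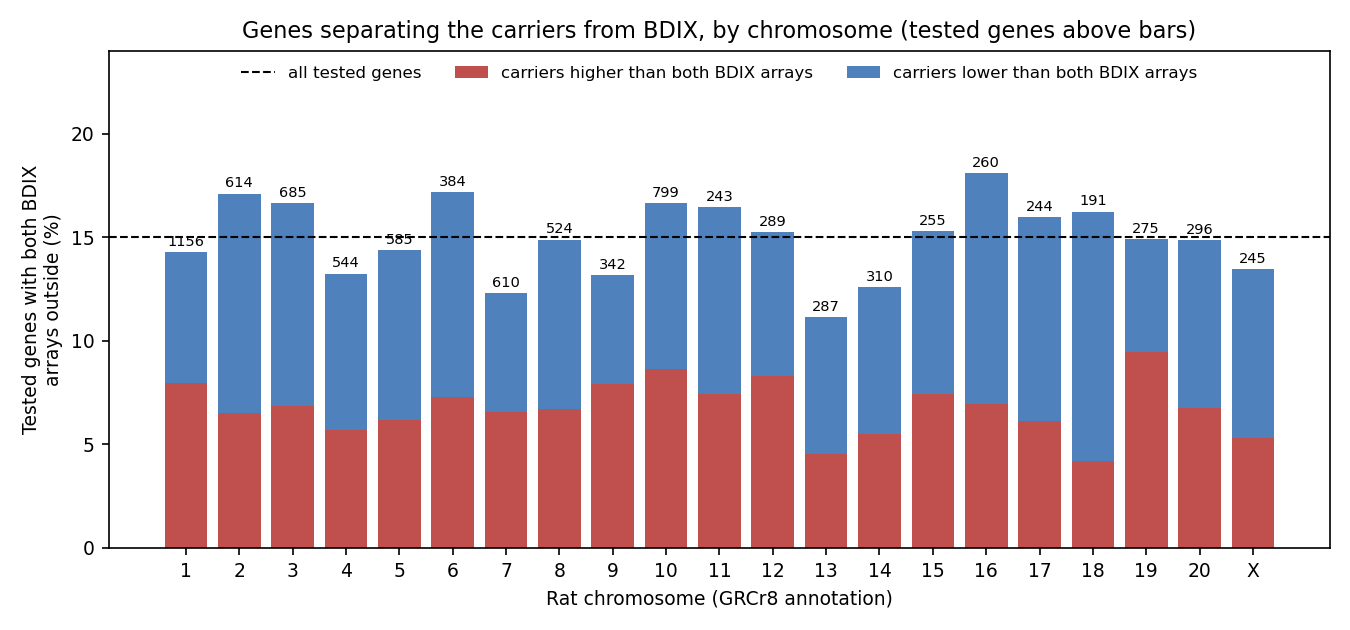
Share of tested genes with both BDIX arrays outside the carriers (vertical axis, percent) on each rat chromosome (horizontal axis), split into genes with carriers higher (red) and lower (blue). The number of tested genes stands above each bar and the dashed line is the share over all tested genes, 15%. The shares run from 11.1% on chromosome 13 to 18.1% on chromosome 16, with chromosome 6 at 17.2%.

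Runs of at least 3 consecutive tested genes separated in the same direction were counted along each chromosome. There were 7 runs of 3, no longer run, and none of these on chromosome 6. Over all tested genes 6.96% were separated with carriers higher and 8% with carriers lower. How many runs these shares give by position alone was not computed, so nothing about location is read from the count. The run on chromosome 9, lower in carriers, held Gulp1, an adaptor gene of engulfment, and the adjacent collagen genes Col3a1 and Col5a2, with gaps of 0.73, 0.69 and 0.52. On chromosome 11 Klhl6, B3gnt5 and Lamp3 were lower in carriers with gaps between 0.39 and 0.53. Mbp headed a run on chromosome 18 with Zfp516 and Cndp1, and Brsk1 a run on chromosome 1 with Hspbp1 and Ppp6r1, but the neighbours' gaps were at most 0.17 and 0.09.

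Around Gpx2 on chromosome 6 the separation was not shared by the adjacent genes. The tested gene before it, Churc1, stood between 11.27 and 12.13 in carriers, against 10.67 and 11.81 in BDIX, and the gene after it, the GTPase gene Rab15, was at 6.86 and 6.89 in BDIV and between 4.94 and 5.42 in the congenic strains, against 5.5 and 5.19 in BDIX. Next after Rab15, Fntb, the beta subunit gene of farnesyltransferase, was between 10.78 and 11.54 in carriers, against 10.84 and 10.62 in BDIX, which overlap. Before Gpx2, Ppp1r36, a phosphatase regulator gene, was between 9.39 and 10.20 in carriers, against 10.81 and 10.68 in BDIX, and Zbtb1, a zinc finger gene, was also lower in carriers (-0.84 ± 0.32).

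Between Gpx2 and Plekhh1 lay 9 tested genes, and 0 of those 9 had both BDIX arrays outside. Plekhh1 encodes a protein with pleckstrin homology and FERM domains. Its level was 5.20 and 7.71 in Mss4d, 9.74 and 9.38 in Mss4a and 9.65 and 9.59 in BDIV, against 5.14 and 4.82 in BDIX, where the probe was not well above background on either array. Mss4a and BDIV were thus alike and high, whereas the Mss4d female pool lay 0.06 above BDIX and the Mss4d male pool between. The probe was detected on 5 of the 6 carrier arrays but not in the Mss4d female pool, so its separation there lies between values near background. The mean of the 6 carriers was at least 10.3-fold higher, with a limma adjusted p of 0.42. That bound takes the undetected Mss4d female value as measured, and it does not hold for Mss4d alone. The difference from BDIX was 1.48 in Mss4d, 4.58 in Mss4a and 4.64 in BDIV.

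Pigh, the next tested gene, encodes a subunit of the enzyme that starts the synthesis of GPI anchors. It stood at 6.28 and 6.30 in Mss4d, 7.54 and 7.08 in Mss4a and 7.32 and 7.30 in BDIV, against 6.29 and 6.29 in BDIX. Mss4d was at the level of BDIX, and the other carriers were higher by 1.02 in Mss4a and 1.01 in BDIV. Arg2, a mitochondrial arginase gene 1 place further, was at 9.25 and 9.36 in BDIV, with 7.67 and 7.01 in Mss4d and 7.55 and 8.37 in Mss4a, against 7.17 and 7.22 in BDIX. The retinol dehydrogenase gene Rdh12 was not well above background in BDIX and at least 1.26-fold higher in carriers. Fut8, a fucosyltransferase gene between Gpx2 and Plekhh1, was between 11.46 and 12.36 in carriers, against 13.49 and 12.35 in BDIX, with the BDIX male pool just inside the carriers. Of the 21 tested genes from Zbtb1 to Zfyve26, 5 had both BDIX arrays outside, against 15% of all genes. The window was placed around Gpx2 and Plekhh1, which are 2 of the 5, so nothing is read from this count.

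**Figure D3:**
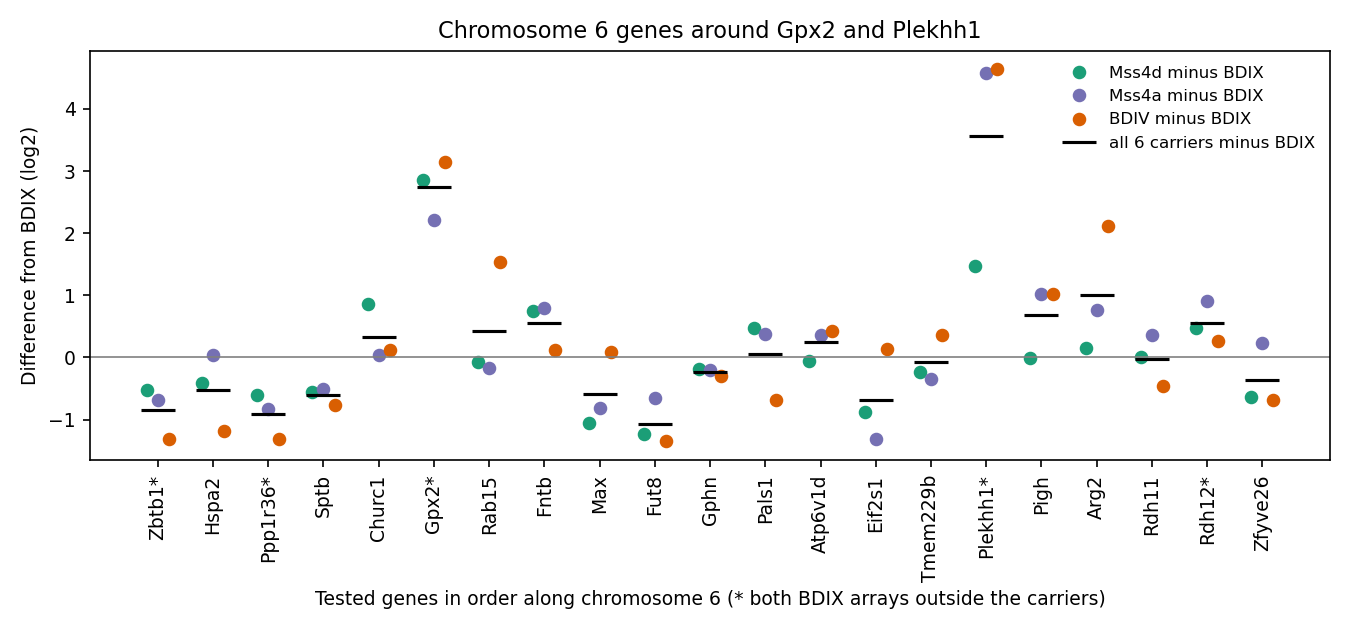
Difference from BDIX (vertical axis, log2) of each carrier strain (coloured points, means of 2 arrays) and of all 6 carriers (black bars) for the 21 tested genes around Gpx2 and Plekhh1, in gene order along chromosome 6 (horizontal axis). Stars mark the 5 genes with both BDIX arrays outside the carriers. At Gpx2 the strains stand between 2.22 and 3.15, and at Plekhh1 Mss4d stands at 1.48 and the other strains at 4.58 and 4.64.

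Gene lists were compared with the background of 637 higher and 732 lower among 9154 genes, whose median difference was 0.00. In every list 0 members passed limma. The list of myelinating Schwann cell genes had 0 members higher and 6 lower in carriers of 13 tested, with a median difference of -0.79. They were Mbp, the galactolipid enzyme gene Ugt8 (-1.34 ± 0.30), the plasmolipin gene Pllp (-1.16 ± 0.42), the myelin proteolipid gene Mal (-0.87 ± 0.29), the transcription factor gene Sox10 (-0.84 ± 0.47) and the myelin-associated glycoprotein gene Mag (-0.78 ± 0.34). The summed linear level of the list was between 67355 and 131171 in carriers, lowest in BDIV, against 171919 and 127124 in the female and male BDIX pools, so the sums overlapped. Of the 12 genes of non-myelinating or immature Schwann cells 1 was higher, Artn, and 1 was lower, the sodium channel gene Scn7a (-0.98 ± 0.37). Artn was not well above background in BDIX and was detected on only 2 of the 6 carrier arrays. Its levels were 5.05 to 5.51 in carriers, against 4.87 and 4.76 in BDIX, so its separation lies near background.

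The members differed in which strain lay lowest. Sox10 was at 12.37 and 12.05 in Mss4d, 12.23 and 12.12 in Mss4a and 10.87 and 10.83 in BDIV, against 12.68 and 12.49 in BDIX. The congenic strains lay just below BDIX and BDIV well below. Pllp had another order, with 11.09 and 11.06 in Mss4d, 9.93 and 9.66 in Mss4a and 10.31 and 10.65 in BDIV, against 11.60 and 11.63 in BDIX.

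Of 19 fibroblast and perineurium genes 0 were higher and 7 lower in carriers, with a median difference of -0.70. They included the fibrillar collagen genes Col3a1 (-1.22 ± 0.29), Col5a2 (-1.13 ± 0.48), Col5a1 (-0.83 ± 0.50) and Col1a2 (-0.18 ± 0.21), the collagen VI gene Col6a1 (-0.81 ± 0.34), the small proteoglycan gene Lum (-0.72 ± 0.33) and the intermediate filament gene Vim (-1.11 ± 0.37). Col3a1 was between 10.37 and 11.27 in carriers, against 11.96 and 12.27 in BDIX. The summed level of the list was between 102889 and 140770 in carriers, against 168432 and 159962 in BDIX, without overlap. The part of a different share of fibroblasts in the pools was not tested.

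Cholesterol synthesis feeds myelin membrane growth. Of 15 tested genes of this pathway 0 were higher and 5 lower in carriers, with a median difference of -0.59: Idi1, Msmo1, Cyp51, Dhcr7 and Fdft1. Msmo1, a sterol demethylation gene, was between 12.02 and 12.64 in carriers, against 13.53 and 12.94 in BDIX (-0.97 ± 0.27). Idi1, an isoprenoid isomerase gene, was at 9.63 and 9.62 in Mss4a and between 11.02 and 11.28 in Mss4d and BDIV, against 11.62 and 11.75 in BDIX, so Mss4a carried most of its difference of -1.06 ± 0.53. Cyp51 was also lowest in Mss4a, at 6.33 and 6.06, and was between 7.31 and 7.96 in the other carriers, against 8.02 and 8.21 in BDIX. With arrays scaled to their medians in place of quantile normalization the lower members numbered 3 in the myelinating Schwann cell list, 3 in the fibroblast list and 1 in the cholesterol list, and each list's median stayed below 0. In that setting 312 of all 9154 genes were higher in carriers (3.41%) and 474 lower (5.18%). With the authors' deposited values, where the median difference of all genes was 0.11, 976 were higher (10.7%) and 614 lower (6.71%).

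In the list of glutathione and peroxide defence 5 of 36 tested genes were higher in carriers and 0 lower, with a median difference of 0.21. Beside Gpx2 they were the quinone reductase gene Nqo1 (0.85 ± 0.29), Gpx4, whose product reduces lipid hydroperoxides in membranes (0.61 ± 0.24), and the peroxiredoxin genes Prdx2 (0.61 ± 0.24) and Prdx3 (0.37 ± 0.27). The count moved with the scaling. Under median scaling 4 of the 36 were higher, against 3.41% of all genes. With the authors' deposited values 3 of the 36 were higher, against 10.7% of all genes. For Gpx4 the difference was 0.85 between the female pools and 0.37 between the male pools, and for Prdx2 it was 0.90 and 0.32, so both were smaller without the BDIX female pool. Nqo1 was at 12.30 and 12.21 in Mss4d, 12.40 and 12.46 in Mss4a and 11.67 and 11.77 in BDIV, against 11.19 and 11.37 in BDIX, with the congenic strains above BDIV. Other peroxidases did not separate. Gpx1, the widespread cytosolic form, was between 8.97 and 10.68 in carriers, against 9.79 and 11.14 in BDIX, and Gpx3, the secreted form, was between 9.33 and 11.21, against 9.29 and 10.45 in BDIX.

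Ethylnitrosourea alkylates DNA. Of 18 tested genes for the repair of alkylated and damaged DNA 0 had both BDIX arrays outside, and the list's median difference was 0.07. Mgmt, which removes alkyl groups from guanine directly, was at 6.83 and 6.96 in Mss4d, 6.05 and 6.36 in Mss4a and 7.30 and 7.02 in BDIV, against 5.36 and 6.62 in BDIX. The BDIX male pool lay within the carriers, and the difference was 0.76 ± 0.40. The glycosylase gene Mpg, which starts base excision, stood at 0.65 ± 0.40 and also overlapped.

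Schwann cell growth is driven by neuregulin through ErbB receptors and Ras. Of 16 tested genes of the ErbB and Ras pathways and tumour suppressors 1 was higher and 3 were lower in carriers, with a median difference of -0.36. The counts moved with the scaling, to 0 higher and 4 lower under median scaling and 0 higher and 1 lower with the authors' deposited values. The cyclin-dependent kinase inhibitor gene Cdkn1b was between 9.37 and 10.27 in carriers, against 10.90 and 10.95 in BDIX (-1.02 ± 0.31). The retinoblastoma gene Rb1 was between 5.40 and 6.63 in carriers, against 7.87 and 6.64 in BDIX (-1.11 ± 0.40), so the BDIX male pool was just above the Mss4a pools. Nf1, the neurofibromin gene, was not well above background on any carrier array, at least 1.20-fold lower than in BDIX, and Map2k2 was 0.26 ± 0.24 higher. The receptor genes Erbb2 (-0.33 ± 0.49) and Erbb3 (-0.88 ± 0.48) and the ligand gene Nrg1 (0.58 ± 1.23) overlapped between carriers and BDIX. Nrg1 was at 9.33 and 9.27 in BDIV but between 4.96 and 7.17 in the congenic strains, against 6.46 and 6.27 in BDIX.

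**Figure D4:**
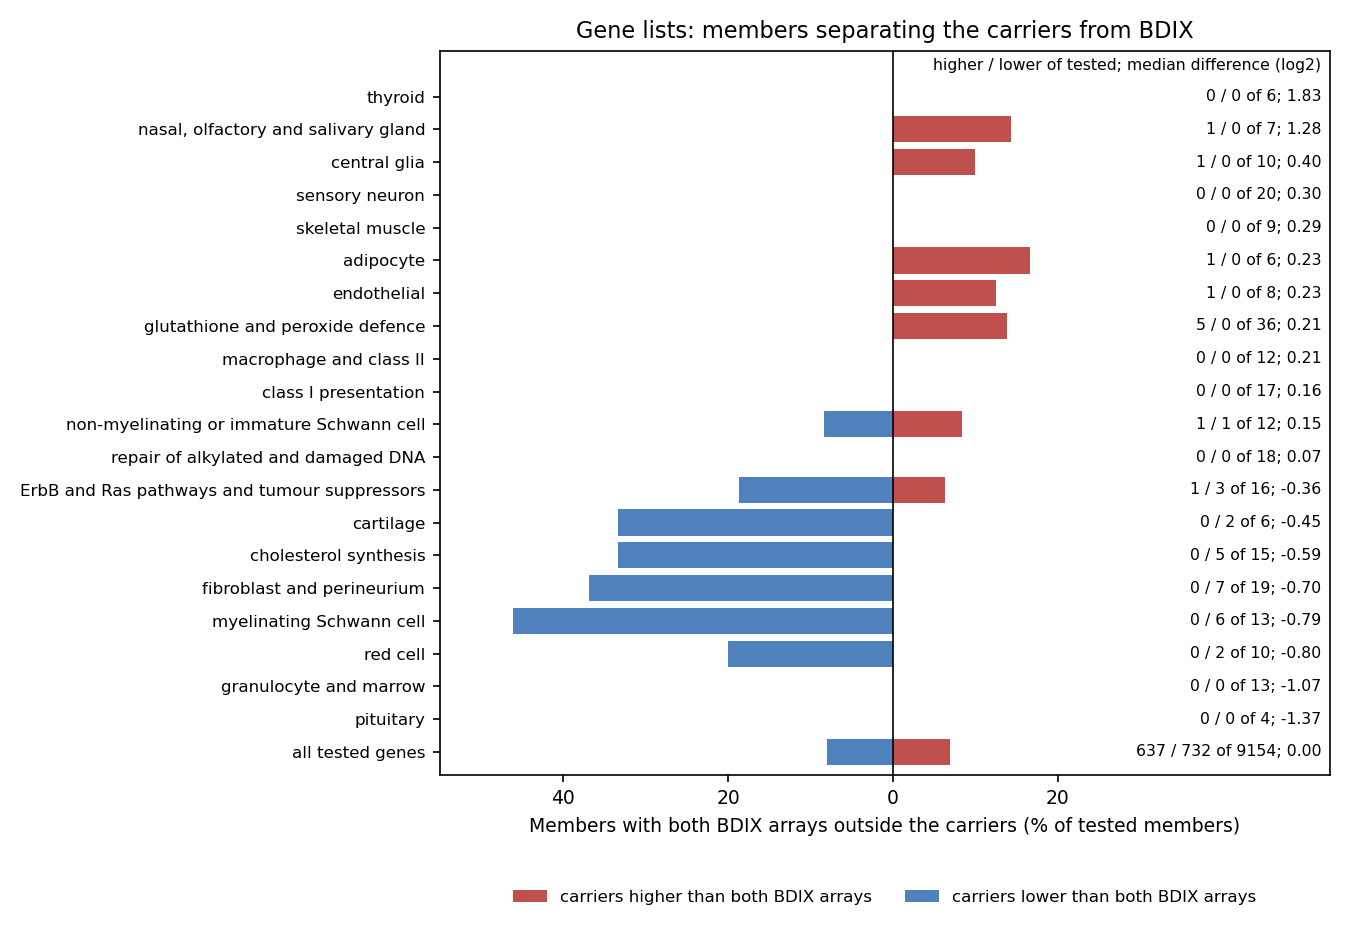
Share of each list's tested genes with both BDIX arrays outside the carriers (horizontal axis, percent), with carriers higher to the right of 0 in red and lower to the left in blue. The text at the right edge gives the counts and the median difference (log2). The myelinating Schwann cell list has 6 lower of 13, and all tested genes have 637 higher and 732 lower of 9154.

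Markers of other tissues and cells were followed in the same way. Of 10 red cell genes 2 were lower in carriers, Alas2 and the globin gene Hbb-b1 (-1.51 ± 0.68), whose probe may read related globins. The summed red cell level was 16806 and 23558 in BDIV and between 71478 and 90678 in the congenic strains, against 81677 and 76906 in BDIX. BDIV alone lay low, and the congenic strains lay around BDIX, whereas Alas2 was below BDIX in all 3 strains. Of 6 cartilage genes 2 were lower, Epyc (-1.91 ± 0.57) and Cnmd (-1.65 ± 0.63). The list's median difference was -0.45, but 3 of the 6 had a difference above 0. With the authors' deposited values 1 member was higher in carriers and 2 were lower. The summed cartilage level was between 820 and 2803 in carriers, against 4035 and 5085 in BDIX, without overlap, and the part of attached cartilage in these differences was not tested.

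Of the 20 tested sensory neuron genes 0 had both BDIX arrays outside (median difference 0.30), and likewise 0 of 17 class I presentation genes (0.16), 0 of 12 macrophage and class II genes (0.21), 0 of 13 granulocyte and marrow genes (-1.07), 0 of 9 skeletal muscle genes (0.29), 0 of 6 thyroid genes (1.83) and 0 of 4 pituitary genes (-1.37). These counts hold for quantile normalization. Of the class I genes 2 were higher in carriers with arrays scaled to their medians and with the authors' deposited values, of the thyroid genes 2 were higher with the authors' values, of the macrophage and class II genes 1 was higher with them, and of the pituitary genes 1 was lower with median scaling. One member was higher in carriers in each of the endothelial list (Flt1, 1 of 8, median 0.23), the adipocyte list (Lipe, 1 of 6, 0.23), the central glia list (Hapln2, 1 of 10, 0.40) and the nasal, olfactory and salivary gland list (Cyp2a3, 1 of 7, 1.28). Flt1 was not well above background on either BDIX array and was detected on 4 of 6 carrier arrays. The gaps of Flt1 and Hapln2 were both 0.035. Median scaling added 1 lower member to the endothelial list. The nasal list had 0 higher with median scaling and with the authors' values. Cyp2a3 was raised on the Mss4a arrays, at 7.37 and 6.64, with 4.73 to 4.77 on the other carrier arrays, against 4.71 and 4.62 in BDIX. Its separation of 0.02 thus lies below background outside Mss4a. Lipe, the hormone-sensitive lipase gene, was between 7.55 and 8.65 in carriers, against 6.81 and 6.99 in BDIX (1.18 ± 0.32).

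Whether the carrier difference varied with sex could hardly be tested, since each sex had 1 BDIX pool. A lack of calls over the 13114 tested probes therefore does not show that the sexes agree. An interaction of carrier status with sex was called for 0 probes in limma, 103 had an unadjusted p under 0.05, and the smallest adjusted p was 0.47. Of the 1369 genes 46 were not well above background on either BDIX array and 27 on none of the carrier arrays, so their differences have a bound on 1 side.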

How the data were processed

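Trigeminal nerve RNA was isolated with TRIzol, biotinylated and hybridised to Illumina RatRef-12 arrays, and GenomeStudio was used, per the submitters' processing notes. The deposited non-normalized table holds the bead signal as linear intensity, with a detection p-value from the authors beside each signal. Each column of the authors' value table was linear in that array's signal (largest residual 0.0143). Columns followed their labels, and 0 belonged to other samples.

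Background correction and quantile normalization were run with neqc (offset 16) in limma 3.58.1 under R 4.3.3. Probes needed a detection p under 0.05 on 2 or more arrays and were tested in limma with carrier status and sex, two-sided, with a Benjamini-Hochberg adjusted p under 0.05 as threshold and 5 residual degrees of freedom. The sex term stands for the pool pair. The fit was tested on simulated data. Of 22523 probes 13793 had 1 symbol and 8730 none, and 13752 were matched by gene identifier. Of the tested probes 9353 had a symbol. For genes, the probe with the highest mean was taken. Chromosomes were known for 9138 tested genes.

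Named genes were, per direction, the 15 widest gaps and 10 smallest limma p-values, 5 tested genes on each side of Gpx2 and Plekhh1, chromosome 6 genes with a gap of at least 1, up to 4 outside members per list, and 3 genes on each side of the rule's edge. Other genes named were chosen after their values were seen. The members and lists were chosen with earlier results of these data known. Alternatives were no background correction, median scaling, the authors' values (floored at 16), no sex term, a trended and robust variance, no detection filter or a strict one (p under 0.01 on 8 arrays), other strain terms, and leaving out arrays or strains. Leaving out the male arrays of BDIX and Mss4d was added after seeing the data.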

Additional observations from a re-analysis of the deposited data

Results flagged for a closer look

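Over the 6 carrier arrays, 89 named genes and 20 summed marker lists were examined for a single array far from the rest, by a gap larger than Dixon's 95% critical value of 0.625 of the range. There were 3 flags, all of them among the 20 summed lists. The critical value holds for 6 independent, normally spread values. The carrier arrays are 3 strains in pairs and the sums are linear levels, so a chance rate of 1 in 20 need not hold. The summed level of thyroid markers was 76484 in the Mss4d male pool and 5646 in the next carrier array, the Mss4d female pool. It was between 263 and 313 in the Mss4a and BDIV pools and 217 and 215 in the BDIX pools. The summed level of pituitary markers was 8800 in the Mss4a female pool, with 518 in the next carrier array, against 6505 and 2038 in BDIX. The summed level of granulocyte and marrow markers was 11454 in the Mss4a male pool, with 3890 in the next carrier array, against 2043 and 10733 in BDIX.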

How the results depend on the processing

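The female and male pools of each strain are paired through sex, which is a term of the fit, and without it 1 probe passed. No paired analysis was possible beyond that because the labels number no replicates. The call of ILMN_1351286 was lost with median scaling and with strain as a random block or 1 mean per strain, which gave 0 probes each, without Mss4a, without BDIV and without the male arrays of BDIX and Mss4d, again 0 each. It was also lost without Mss4d, where another probe passed. With strain and sex as terms 849 probes passed, 612 of them among the 1880. With each array left out in turn 0 to 1 probes passed. Probes with both BDIX arrays outside numbered 1880, but 1171 with median scaling, 2091 to 5072 with single arrays left out, 3314 without Mss4d, 2977 without Mss4a, 4285 without BDIV and 5688 without the 2 male arrays. Fewer arrays make separation easier by construction, and among single arrays the highest counts came without the male (5072) or the female (3204) BDIX pool. Background correction leaves ranks within arrays as they are, so this count was 1880 without it. Of the 1369 genes 590 were also outside with median scaling (43.1%, and 75.1% of that setting's genes) and 1082 with the authors' values (79.0% and 68.1%), and of the 109 genes with a gap of at least 0.5, 102 and 108 were. The share of carriers-higher among separated probes was 43.8%, against 38.6% with median scaling and 61.6% with the authors' values.

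Probes with a gap of at least 1 numbered 10, but 3 without background correction, 6 with median scaling, 20 with the authors' values, 12 to 297 with single arrays left out, 39 without Mss4d, 31 without Mss4a, 79 without BDIV and 342 without the 2 male arrays. The highest single-array value again came without the BDIX male array. On chromosome 6 the 1 gene became 0 with median scaling, where the gap of Gpx2 was 0.85, 1 to 10 with single arrays left out, 3 without Mss4d, 2 without Mss4a and 13 without the 2 male arrays. Its share of separated genes was 11.2% against 8.59% of all genes with median scaling, and 20.8% against 17.4% with the authors' values. Where no construction is named, the cause was not tested.

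Over 107 named genes and probes 26 differences turned in sign, in 10 genes of which 0 passed the threshold. With single arrays left out the ranges were -0.23 to 0.89 for Churc1, -0.082 to 0.24 for Pals1, -0.13 to 0.082 for Rdh11, -0.19 to 0.036 for Tmem229b, -0.89 to 0.16 for Zfyve26, -0.75 to 0.0099 for Gpx1, -0.063 to 0.78 for Gpx3 and -0.0089 to 1.09 for Nrg1. Pals1 also turned with median scaling (-0.016), without Mss4d (-0.16), without Mss4a (-0.11) and without the 2 male arrays (-0.037), and Gpx1 without those arrays (0.0099). Without BDIV, Rab15 was -0.12, Rdh11 0.19, Erbb2 0.11 and Nrg1 -0.60. Tmem229b was 0.024 with median scaling, 0.39 with the authors' values, 0.0033 without Mss4d and 0.064 without Mss4a.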
